A study of Homo sapiens with 24 samples.

Results

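The basal and squamous keratins described here are KRT5, KRT6A and KRT6B, which are type II (basic) keratins, and KRT13, KRT14, KRT15, KRT16 and KRT17, which are type I (acidic) keratins. They were chosen by name, as the entries of the deposited count files that carry these 8 symbols, out of 57167 distinct symbols in all. Their RNA was measured in 24 libraries of 3 human breast cancer cell lines.

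Keratins build the intermediate filaments of epithelial cells, and a filament forms from pairs of a type I and a type II chain. KRT5 and KRT14 are the main pair of the basal layer of stratified epithelia and of myoepithelial cells in the breast. KRT15 is a further type I keratin of basal cells, and KRT13 belongs to the upper layers of non-cornified stratified epithelia such as the oral mucosa. KRT6A, KRT6B, KRT16 and KRT17 are induced in epidermis by wounding and hyperproliferation. In breast tumours, KRT5, KRT14 and KRT17 are used as markers of a basal-like state, while KRT8, KRT18 and KRT19 mark luminal cells.

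The type II members lie in 1 cluster on chromosome 12 of GRCh38, in the order KRT6B (52446651 to 52452126), KRT6C, KRT6A (52487174 to 52493257) and KRT5 (52514575 to 52520687). The type I members lie on chromosome 17, with KRT13 (41500981 to 41505705), KRT15 (41513743 to 41522529), KRT14 (41582279 to 41586921), KRT16 (41609778 to 41615899) and KRT17 (41619441 to 41624842) all on the minus strand. KRT13 overlaps the antisense gene AC019349.1 over 1427 bases, and KRT15 hosts the microRNA gene MIR6510 on its own strand. Positions and transcripts are those of GENCODE release 29, which the files themselves do not name.

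Among the members only KRT6A and KRT6B are near-identical copies, which bears on how their reads are counted. The coding sequences of KRT6A and KRT6B agree at 97.5% of 1692 aligned bases, with 42 bases that differ. KRT14 is identical to KRT16 at 88.7% of aligned bases and to KRT17 at 85.2%, and KRT13 differs from KRT15 at 222 of 1306 aligned bases. The following stretch of exon 2 shows how little separates the KRT6 genes, with capitals at the 10 positions where the 3 copies are not all alike. It lies at chr12:52491532-52491621 in KRT6A, chr12:52450416-52450505 in KRT6B and chr12:52472076-52472165 in KRT6C, each read 5′ to 3′ along the minus strand.
KRT6A: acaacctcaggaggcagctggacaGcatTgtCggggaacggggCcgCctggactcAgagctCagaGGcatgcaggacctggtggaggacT
KRT6B: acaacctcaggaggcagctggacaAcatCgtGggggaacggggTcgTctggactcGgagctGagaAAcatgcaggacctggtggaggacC
KRT6C: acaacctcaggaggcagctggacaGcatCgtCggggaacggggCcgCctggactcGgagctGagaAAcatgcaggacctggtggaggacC

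The type I keratins of the KRT14 branch differ more often. The next stretch, from exon 5, was likewise picked as the one that differs most. It has capitals at the 28 positions where KRT16 (chr17:41610888-41610977), KRT14 (chr17:41583585-41583674) and KRT17 (chr17:41621000-41621089) are not all alike, again on the minus strand of GRCh38.
KRT16: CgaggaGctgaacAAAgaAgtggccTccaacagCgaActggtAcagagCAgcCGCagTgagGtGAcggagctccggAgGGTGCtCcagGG
KRT14: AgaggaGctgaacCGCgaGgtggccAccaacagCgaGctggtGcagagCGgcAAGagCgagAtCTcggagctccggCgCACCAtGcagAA
KRT17: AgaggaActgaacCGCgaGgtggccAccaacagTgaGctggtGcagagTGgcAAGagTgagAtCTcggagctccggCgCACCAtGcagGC

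KRT15 (chr17:41515918-41516007) and KRT13 (chr17:41502720-41502809) are shown for the same part of the protein-coding sequence, on the minus strand, with capitals at the 20 positions that differ. They are shown because both are abundant in HCC1937 and, unlike the groups above, share no long stretch. Their stretch too was picked as the one with the most differing positions.
KRT15: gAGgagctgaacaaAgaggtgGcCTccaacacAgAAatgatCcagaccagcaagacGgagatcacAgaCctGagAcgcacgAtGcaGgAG
KRT13: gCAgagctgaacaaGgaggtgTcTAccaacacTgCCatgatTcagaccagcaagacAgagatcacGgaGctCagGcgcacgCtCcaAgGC

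Counted in windows of 100 bases over the annotated transcript, 18.2% of KRT6A and 24.6% of KRT6B windows also occur in another keratin gene. The share was 7.18% in KRT16, 5.95% in KRT14, 1.44% in KRT5 and 0.353% in KRT17, and no window of KRT13 or KRT15 was shared. How the authors' counting placed reads of shared windows is not given in the sources used here.

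HCC1395, HCC38 and HCC1937 are established breast cancer lines. HCC1395 cells were given EZH2i+AKTi, EZH2i alone, AKTi alone or the solvent DMSO, and HCC38 and HCC1937 cells were given EZH2i+AKTi or DMSO, with 3 libraries (A, B and C) in each of the 8 groups. EZH2i is 5 uM tazemetostat, which inhibits EZH2, the enzyme of the Polycomb repressive complex that methylates histone H3 at lysine 27, and AKTi is 5 uM ipatasertib, which inhibits the AKT kinases downstream of PI3K. How long these cells were treated is not known here, as the labels give a timeline only for a different line and assay. The labels do not say whether the libraries of a group are separate cultures. The spread behind each p-value is that between these libraries and may be technical.

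Library totals were 33469927 to 51815656 counts. The 8 keratins together took 0.0633% to 0.0742% of counts in HCC1937 EZH2i+AKTi libraries and 0.201% to 0.257% in HCC1937 DMSO libraries, against 0.00479% to 0.00672% in HCC38 EZH2i+AKTi and 0.00827% to 0.00900% in HCC38 DMSO. In HCC1395 the share was 0.0726% to 0.0787% under EZH2i+AKTi, 0.0861% to 0.0862% under EZH2i, 0.0426% to 0.0436% under AKTi and 0.0534% to 0.0564% under DMSO. Library C of HCC38 EZH2i+AKTi stood apart from its group: mitochondrial genes took 7.77% of its counts, against 4.76% and 5.19% in A and B, and its counts differed from theirs with a chi-square per degree of freedom of 88.2 and 45.7, against 15.5 between A and B. Tests of the 8 keratins that involve HCC38 EZH2i+AKTi are therefore given with and without it. In bulk RNA, fewer cells of a type and less RNA per cell cannot be told apart.

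The 3 lines carried different keratins under DMSO. Levels are CPM, the counts of a gene scaled to library size, after TMM scaling over all libraries, and levels of different genes are compared only as CPM per kilobase of transcript. HCC38 expressed mainly KRT16, at 30.9 ± 1.98 CPM per kb (SD, n = 3), which was 67.6% of the 8 keratins, followed by KRT15 with 21.4%. HCC1937 expressed KRT16 (433 ± 42.3 CPM per kb), KRT15 (355 ± 35.3) and KRT13 (334 ± 73.2) at levels whose ranges neighbour each other, and these made up 36.1%, 29.5% and 27.8% of its total. HCC1395 expressed KRT14 above all, at 259 ± 6.81 CPM per kb or 80.1%, followed by KRT6B with 9.55% and KRT16 with 8.74%.

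**Figure D1:**
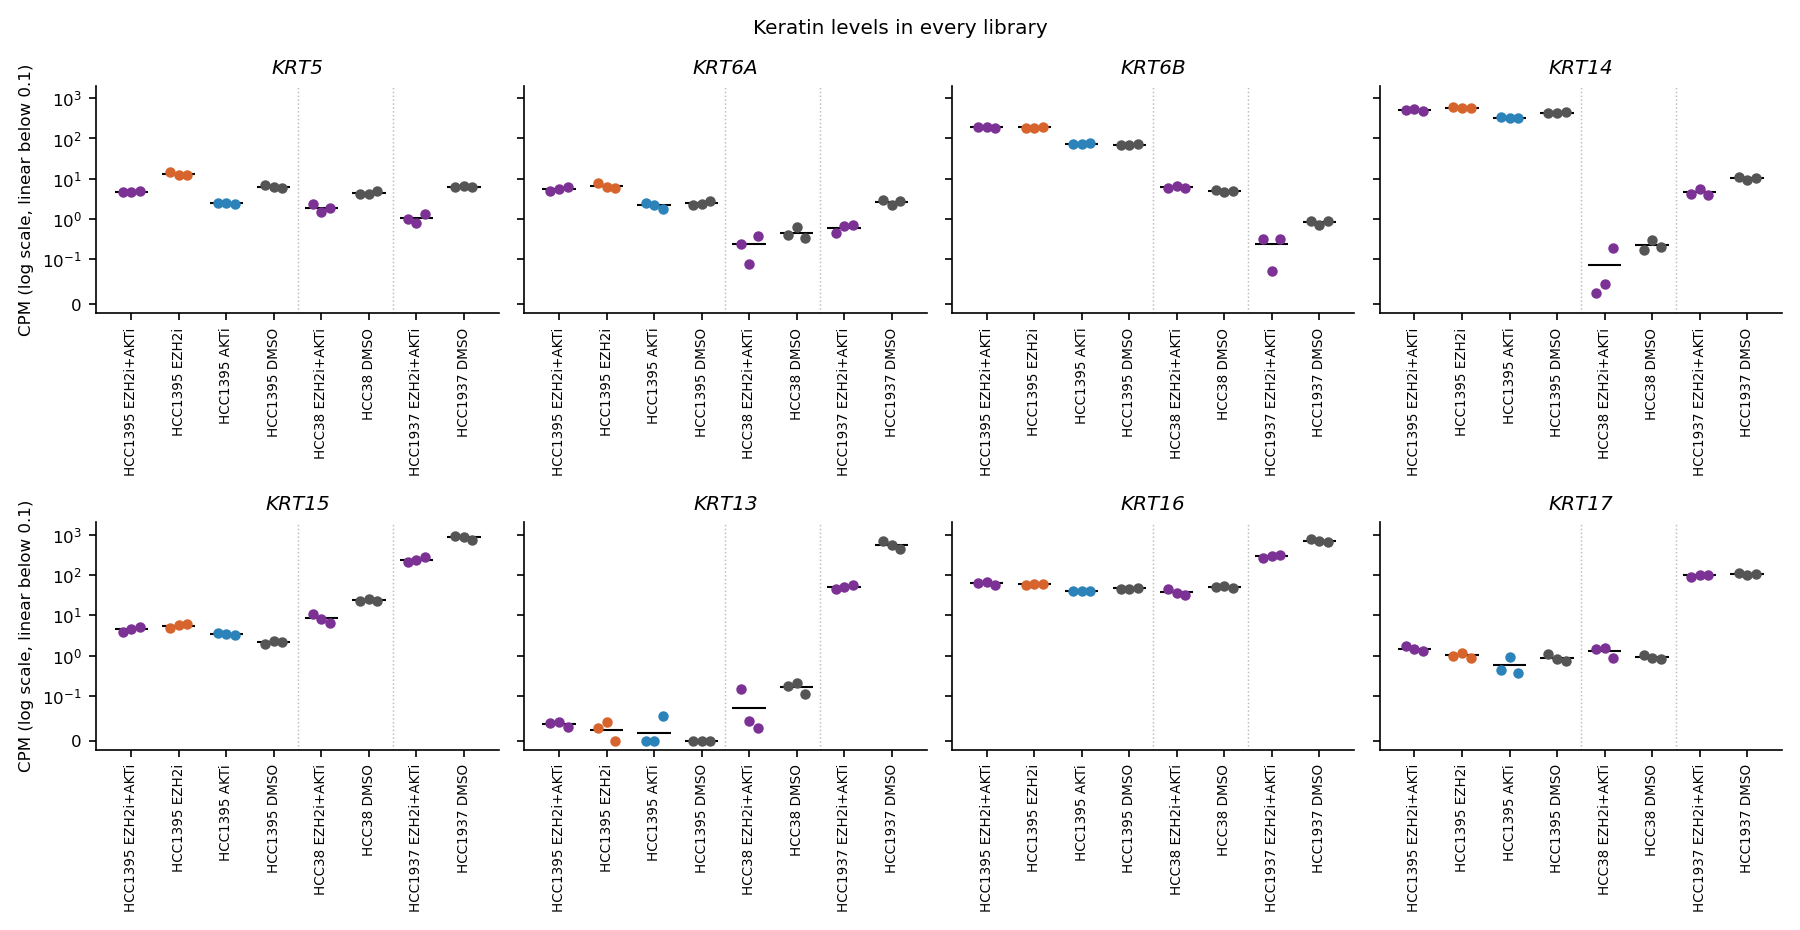
CPM of each keratin (log axis, linear below 0.1) in all 24 libraries, by line and treatment; points are libraries and bars are means of 3 libraries. KRT14 is at 315 CPM or more in the HCC1395 libraries and at 0.299 CPM or less in the HCC38 libraries, while KRT13 is at 45.0 CPM or more in the HCC1937 libraries and at 0.209 CPM or less elsewhere.

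**Figure D2:**
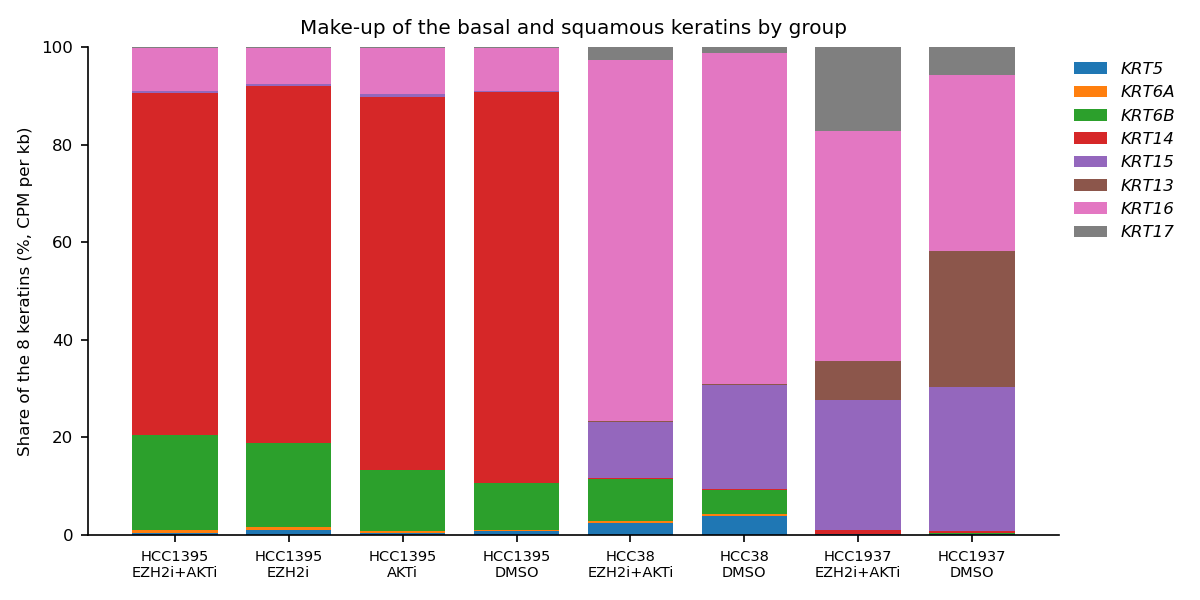
Share of each gene (%) in the summed CPM per kilobase of the 8 keratins, from group means. KRT14 makes up 70.2% to 80.1% of the total in the HCC1395 groups, and KRT16 is the leading keratin in both groups of HCC38 and of HCC1937.

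KRT14 had 6, 10 and 7 counts in HCC38 DMSO libraries A, B and C, against 468, 421 and 495 in HCC1937 and 15801, 14872 and 15957 in HCC1395. These ranges are far apart, and each step between lines passed the test over all 24 libraries. On the log2 scale, KRT14 differed by -10.9 ± 0.16 (SE) in HCC38 against HCC1395 and by -5.39 ± 0.11 in HCC1937 against HCC1395, with edgeR quasi-likelihood adjusted p = 3.47e-29 and 4.75e-27.

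KRT13 had 6, 7 and 4 counts in HCC38 DMSO libraries and 28803, 25675 and 21316 in HCC1937 DMSO libraries, and no count in any HCC1395 DMSO library. A count of 0 over the HCC1395 DMSO group allows a level of up to 0.027 CPM, from counting error alone. Taken against a floor of 3 counts in each HCC1395 DMSO library, KRT13 was at least 6987-fold higher in HCC1937 than in HCC1395. KRT13 counts in treated HCC1395 libraries were 0 to 2, so KRT13 was not tested within that line.

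KRT5, the basal type II keratin, differed little between the 3 lines in CPM. It had 4.49 ± 0.512 CPM in HCC38, 6.41 ± 0.073 in HCC1937 and 6.36 ± 0.574 in HCC1395 under DMSO (SD, n = 3 each). The log2 difference of HCC1937 against HCC1395 was 0.01 ± 0.13 (SE, adjusted p = 0.959), with overlapping libraries. HCC38 was lower than both, by -0.50 ± 0.14 against HCC1395 (adjusted p = 0.00197) and -0.51 ± 0.14 against HCC1937 (adjusted p = 0.00157).

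KRT16 and KRT15 ranked highest per kilobase in both HCC38 and HCC1937. KRT15 separated all 3 lines, while KRT16 separated only HCC1937 from the others. KRT15 had 22.1, 25.5 and 22.6 CPM in HCC38 libraries, 919, 874 and 755 in HCC1937 libraries and 1.99, 2.25 and 2.14 in HCC1395 libraries. All 3 lines differed in KRT15, by 3.46 ± 0.17 for HCC38 against HCC1395, 8.64 ± 0.18 for HCC1937 against HCC1395 and -5.18 ± 0.14 for HCC38 against HCC1937 on the log2 scale. KRT16 was 712 ± 69.6 CPM in HCC1937 and thus 15.3-fold above HCC1395 (46.5 ± 1.87 CPM), whereas HCC38 (50.8 ± 3.25 CPM) and HCC1395 did not differ past the threshold (log2 0.13 ± 0.092, adjusted p = 0.206).

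KRT17, a stress keratin that is close to KRT16 and KRT14 in sequence, was high in HCC1937 alone among the DMSO groups, with 109, 99.2 and 105 CPM. HCC38 had 1.06, 0.868 and 0.818 CPM and HCC1395 had 1.10, 0.825 and 0.723 CPM, and these libraries overlapped. KRT6B, a type II stress keratin, had its lowest level in HCC1937. It had 5.02 ± 0.201 CPM in HCC38, 0.845 ± 0.121 in HCC1937 and 70.4 ± 2.97 in HCC1395, with all 3 differences past the threshold. KRT6A had 0.455 ± 0.153 CPM in HCC38, 2.70 ± 0.359 in HCC1937 and 2.48 ± 0.344 in HCC1395, and HCC1937 and HCC1395 did not differ past the threshold (log2 0.12 ± 0.20, adjusted p = 0.593).

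Counted over the members, HCC38 against HCC1395 had 2 higher and 4 lower of 8 tested, in a comparison that called 74.7% of all genes tested. HCC1937 against HCC1395 had 4 higher and 2 lower of 8, with 73.0% of all genes called. HCC38 against HCC1937 had 1 higher (KRT6B) and 7 lower of 8, with 71.9% of all genes called. Calls of KRT13 against HCC1395 rest on libraries with no count and are given no fold change from the fit.

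EZH2 inhibition alone raised most of the detected keratins in HCC1395. KRT6B, KRT6A, KRT15 and KRT5 rose by more than 1 on the log2 scale, while KRT14 and KRT16 rose by less. Of 7 members tested, 6 were higher and none lower at an adjusted p of 0.05, with 33.7% of all 18074 genes called in that comparison. The members' median log2 change was 1.08, against 0.02 over all genes tested.

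KRT6B had 185, 186 and 192 CPM under EZH2i, against 68.4, 69.1 and 73.9 CPM under DMSO. The groups lay far apart, for a log2 change of 1.42 ± 0.048 (SE, adjusted p = 1.43e-14). KRT6A had 7.87, 6.19 and 5.94 CPM under EZH2i, against 2.21, 2.36 and 2.86 CPM under DMSO, a log2 change of 1.43 ± 0.15 (adjusted p = 2.97e-07). The wound-induced type II genes thus rose by like amounts, and their count ratio is given further on.

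KRT15, the basal type I keratin, had 4.76, 5.60 and 6.17 CPM under EZH2i, against 1.99, 2.25 and 2.14 CPM under DMSO, and all EZH2i libraries lay above all DMSO libraries. Its log2 change was 1.38 ± 0.14 (adjusted p = 1.77e-07). KRT5, the basal type II keratin, had 15.0, 12.7 and 12.8 CPM under EZH2i, against 7.02, 6.09 and 5.98 CPM under DMSO, a log2 change of 1.08 ± 0.098 (adjusted p = 2.74e-08). KRT14, the most abundant of the 8 in this line, rose to 594, 585 and 567 CPM under EZH2i, against 425, 423 and 444 CPM under DMSO. Its log2 change was 0.44 ± 0.052 (adjusted p = 1.22e-06). KRT16 rose to 58.8 ± 0.975 CPM, against 46.5 ± 1.87 CPM under DMSO (log2 0.34 ± 0.061, adjusted p = 0.000143). KRT17 had 0.998, 1.16 and 0.871 CPM under EZH2i and 1.10, 0.825 and 0.723 CPM under DMSO, with overlapping libraries and adjusted p = 0.637.

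AKT inhibition alone split the same keratins. KRT5, KRT14 and KRT16 fell, KRT15 rose, and KRT6A, KRT6B and KRT17 did not pass the test. In this comparison 49.7% of all genes were called, so 1 higher and 3 lower of 7 members tested is close to that share. The members' median log2 change was -0.23, against 0.06 over all genes tested.

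KRT5 had 2.55, 2.57 and 2.39 CPM under AKTi, against 7.02, 6.09 and 5.98 CPM under DMSO, and no library of one group came near the other. It fell by 1.35 ± 0.12 on the log2 scale (adjusted p = 4.73e-09). KRT14 had 336, 329 and 315 CPM under AKTi, against 425, 423 and 444 CPM under DMSO (log2 -0.41 ± 0.052, adjusted p = 1.60e-06). KRT16 had 39.8, 40.5 and 39.4 CPM under AKTi, against 45.3, 45.4 and 48.6 CPM under DMSO, a log2 change of -0.23 ± 0.061 (adjusted p = 0.0044). The KRT16 call was lost in the fit of all 24 libraries (-0.22, adjusted p = 0.06).

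KRT15 went the other way, with 3.64, 3.42 and 3.23 CPM under AKTi, against 1.99, 2.25 and 2.14 CPM under DMSO. The groups did not overlap, and the log2 change was 0.69 ± 0.15 (adjusted p = 0.000663). KRT6B stood at 74.1 ± 1.52 CPM under AKTi and 70.4 ± 2.97 CPM under DMSO, with adjusted p = 0.269. KRT6A (adjusted p = 0.394) and KRT17 (adjusted p = 0.0973) had overlapping libraries. Without AKTi library B, which had 0.903 CPM of KRT17 against 0.439 and 0.381 in A and C, KRT17 was lower by -1.11 (adjusted p = 0.00778).

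Under both inhibitors, 6 of 7 tested members were higher than under DMSO and KRT5 was lower, in a comparison that called 60.0% of all genes. The members' median log2 change was 0.74, against 0.07 over all genes tested. KRT6B had 193, 196 and 187 CPM under EZH2i+AKTi, against 68.4, 69.1 and 73.9 CPM under DMSO (log2 1.44 ± 0.048, adjusted p = 1.51e-15). KRT6A (1.18 ± 0.15), KRT15 (1.05 ± 0.14), KRT16 (0.41 ± 0.060) and KRT14 (0.22 ± 0.052) also rose on the log2 scale, with adjusted p of 1.17e-06, 2.39e-06, 6.80e-06 and 0.00102.

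Mitochondrial genes took 6.14% to 6.30% of counts in HCC1395 libraries under EZH2i+AKTi, 4.49% to 5.19% under EZH2i, 5.34% to 5.72% under AKTi and 3.77% to 3.92% under DMSO. The 15 luminal markers summed to 698 to 721 CPM, 426 to 441 CPM, 553 to 581 CPM and 377 to 387 CPM in the same 4 groups, with 0, 1, 2 and 2 of them at 0 counts throughout. The part of either in the HCC1395 changes was not tested.

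KRT5 stood apart from the other members under the combination. It had 4.60, 4.68 and 4.88 CPM under EZH2i+AKTi, against 7.02, 6.09 and 5.98 CPM under DMSO, below every DMSO library but above every AKTi library. Its log2 change was -0.44 ± 0.11 (adjusted p = 0.00109). KRT17 had 1.69, 1.43 and 1.32 CPM under EZH2i+AKTi, against 1.10, 0.825 and 0.723 CPM under DMSO, for a log2 change of 0.74 ± 0.27 (adjusted p = 0.0226). With only 26 to 88 counts a library in these groups, the KRT17 call was lost without DMSO library B (0.69, adjusted p = 0.0674), DMSO library C (0.61, adjusted p = 0.094) or EZH2i+AKTi library A (0.62, adjusted p = 0.0977).

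**Figure D3:**
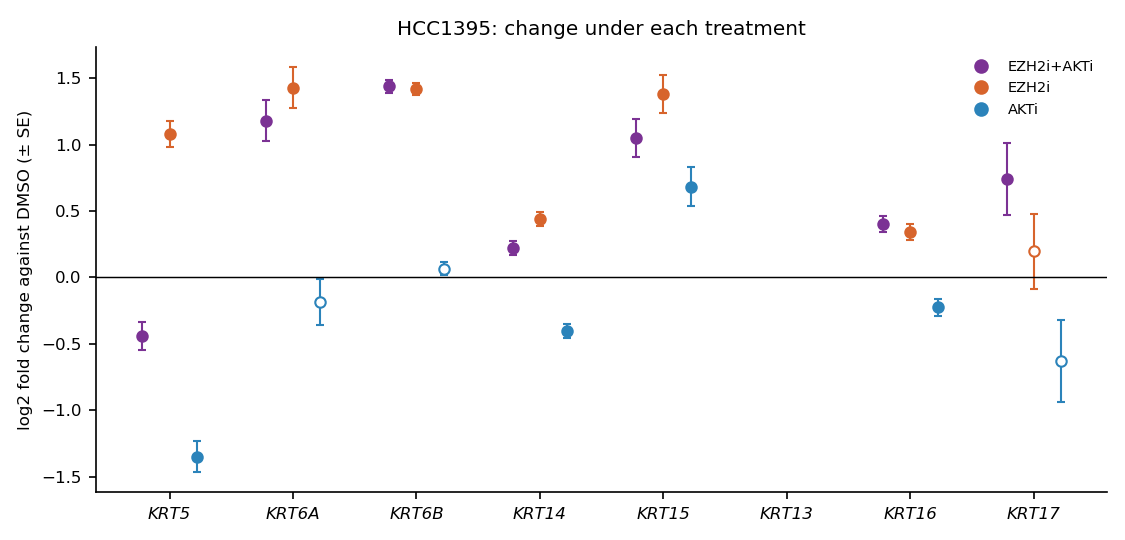
Log2 fold change against DMSO (points) with its standard error (bars) for each keratin in HCC1395 under EZH2i+AKTi, EZH2i and AKTi; filled points passed an adjusted p of 0.05 and KRT13 was not tested. KRT5 is the member with opposite called changes under EZH2i (1.08) and AKTi (-1.35) that also lies below DMSO under both (-0.44).

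Set against each single agent, the combination differed mainly from AKTi. Against AKTi, 7 of 7 members were higher, with 35.5% of all genes called, from KRT15 at 0.36 ± 0.14 to KRT6B at 1.37 ± 0.048 and KRT17 at 1.37 ± 0.28 on the log2 scale. The KRT15 call there was narrow (adjusted p = 0.0407) and was lost without AKTi library A, B or C, EZH2i library B or EZH2i+AKTi library B or C, with adjusted p of 0.0528 to 0.15. It was lost too with no low-count filter (adjusted p = 0.0651), in the fit of all 24 libraries (adjusted p = 0.138) and with those groups fitted alone (adjusted p = 0.0611). Against EZH2i, 3 of 7 were lower and none higher, with 49.0% of all genes called. These were KRT5 (-1.53 ± 0.099, adjusted p = 8.03e-11), KRT14 (-0.22 ± 0.052, adjusted p = 0.00154) and KRT15 (-0.33 ± 0.13, adjusted p = 0.0377). The KRT15 libraries overlapped between those groups, and this call too was lost without EZH2i library B or C or EZH2i+AKTi library A or B, with adjusted p of 0.0829 to 0.195. Other settings that ended the KRT15 call were no low-count filter (adjusted p = 0.0666), DESeq2 (0.0501), the fit of all 24 libraries (0.121) and those groups fitted alone (0.0724). The KRT14 call against EZH2i was lost in the fit of all 24 libraries (adjusted p = 0.0582).

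The single agents differed from each other in every tested member. EZH2i was above AKTi in 7 of 7, with 55.6% of all genes called, by 2.43 ± 0.11 for KRT5, 1.61 ± 0.15 for KRT6A, 1.35 ± 0.048 for KRT6B and 0.84 ± 0.053 for KRT14 on the log2 scale. KRT17 was called (0.83 ± 0.30, adjusted p = 0.0233) although its libraries overlapped, and lost its call without AKTi library A (adjusted p = 0.106), AKTi library C (adjusted p = 0.121) or EZH2i library B (adjusted p = 0.0957).

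The interaction term takes the log2 change under both agents and subtracts the EZH2i change and the AKTi change. It was called for KRT15 alone among the 7 members, with 1.58% of all genes called. KRT15 averaged 4.46 CPM under EZH2i+AKTi, 5.51 under EZH2i, 3.43 under AKTi and 2.13 under DMSO, so both agents raised it and the combination fell short of their sum by -1.02 ± 0.20 (adjusted p = 0.00942). For KRT5 the term was -0.18 ± 0.15 (adjusted p = 0.697). KRT6B (-0.05 ± 0.066), KRT6A (-0.06 ± 0.22), KRT14 (0.19 ± 0.074, adjusted p = 0.258), KRT16 (0.29 ± 0.086, adjusted p = 0.108) and KRT17 (1.17 ± 0.40, adjusted p = 0.18) were not called. Leaving out EZH2i+AKTi library C brought in KRT16 (0.35, adjusted p = 0.00647) and KRT14 (0.24, adjusted p = 0.0246), and leaving out library B brought in KRT16 (0.30, adjusted p = 0.0217). In the fit of all 24 libraries the KRT15 term kept its size (-1.02) but was not called (adjusted p = 0.102). Over all genes, 95 interaction terms were positive and 191 negative among those called with TMM scaling, against 146 and 125 with RLE scaling, the size factors of DESeq2.

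HCC1937 moved in the other direction. Under EZH2i+AKTi 7 of 8 keratins fell and none rose, while KRT17 stayed near its DMSO level without passing the test. In HCC1937, 59.3% of all 17692 genes tested were called in one direction or the other. The members' median log2 change was -1.81, against 0.03 over all genes tested.

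KRT13, the mucosal type I keratin, had 45.0, 50.9 and 56.0 CPM under EZH2i+AKTi, against 693, 565 and 444 CPM under DMSO. The lowest DMSO library was thus far above the highest treated one, and KRT13 was 11.2-fold lower (log2 -3.49 ± 0.20, adjusted p = 2.86e-05). Its antisense neighbour AC019349.1 is listed with 0 counts in all 24 libraries, and whether the counting used strand is not stated. KRT15 had 205, 240 and 273 CPM under EZH2i+AKTi, against 919, 874 and 755 CPM under DMSO, and was 3.56-fold lower (log2 -1.83 ± 0.11, adjusted p = 4.86e-07). KRT16 had 265, 292 and 314 CPM under EZH2i+AKTi, against 790, 691 and 655 CPM under DMSO (log2 -1.30 ± 0.077, adjusted p = 5.20e-09).

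The basal pair fell as well, at its lower level. KRT5 had 37, 33 and 62 counts under EZH2i+AKTi, against 267, 294 and 304 counts under DMSO, and was 6.01-fold lower after scaling (log2 -2.59 ± 0.17, adjusted p = 4.93e-09). KRT14 had 157, 220 and 184 counts under EZH2i+AKTi, against 468, 421 and 495 counts under DMSO (log2 -1.17 ± 0.13, adjusted p = 1.37e-06). KRT6A had 17, 27 and 32 counts under EZH2i+AKTi, against 123, 104 and 137 counts under DMSO (log2 -2.13 ± 0.21, adjusted p = 6.16e-07). KRT6B, near the limit of detection in this line, had 12, 3 and 15 counts under EZH2i+AKTi, against 38, 32 and 44 counts under DMSO (log2 -1.79 ± 0.39, adjusted p = 0.00104). For all 7 called members the groups did not overlap, but the share of all genes without overlap was not computed.

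KRT17 was the exception in HCC1937. It had 88.9, 100 and 102 CPM under EZH2i+AKTi, against 109, 99.2 and 105 CPM under DMSO, so the libraries overlapped (log2 -0.11 ± 0.066, adjusted p = 0.173). As KRT13, KRT15 and KRT16 fell, KRT17 came to 17.1% of the 8 keratins per kilobase under EZH2i+AKTi, against 5.74% under DMSO. KRT13 came to 7.97%, against 27.8%, KRT15 to 26.7%, against 29.5%, and KRT16 to 47.2%, against 36.1%. Mitochondrial genes took 6.72% to 8.54% of counts in the EZH2i+AKTi libraries and 4.81% to 6.37% in the DMSO libraries, and 5 endothelial markers summed to 66.5 to 71.2 CPM and 35.9 to 38.8 CPM in those groups. None of these 5 was at 0 counts throughout a group, and CDH5 gave 32.9 CPM and 14.6 CPM of the sums. The 8 leukocyte markers summed to 8.30 to 9.22 CPM under EZH2i+AKTi and 4.21 to 4.80 CPM under DMSO, with 2 at 0 counts throughout each group. Of 4 leukocyte markers tested, 3 were higher (CSF1R, LYZ and PTPRC) and ITGAM was not called (adjusted p = 0.0528). The part of any of these in the keratin changes was not tested.

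In HCC38, 3 of 6 tested keratins fell under EZH2i+AKTi and none rose, with 31.4% of all 17100 genes called. The members' median log2 change was -0.73, against -0.01 over all genes tested. KRT13 and KRT14 had 1 to 10 counts in every HCC38 library and did not pass the filter on low counts. KRT15 had 10.9, 7.97 and 6.37 CPM under EZH2i+AKTi, against 22.1, 25.5 and 22.6 CPM under DMSO (log2 -1.51 ± 0.18, adjusted p = 0.000174). KRT5 had 2.35, 1.46 and 1.94 CPM under EZH2i+AKTi, against 4.19, 4.19 and 5.08 CPM under DMSO (log2 -1.26 ± 0.20, adjusted p = 0.000979). Both groups of values lay well apart, and the changes were -1.31 for KRT15 and -1.23 for KRT5 without library C of EZH2i+AKTi, with adjusted p of 4.41e-08 and 4.94e-05.

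KRT16, the leading keratin of HCC38, had 43.7, 36.5 and 31.2 CPM under EZH2i+AKTi, against 49.7, 54.5 and 48.3 CPM under DMSO. It was lower by -0.48 ± 0.13 (adjusted p = 0.0176), and by -0.33 without EZH2i+AKTi library C (adjusted p = 0.00724). The call did not hold without DMSO library B (-0.43, adjusted p = 0.0856) or EZH2i+AKTi library B (-0.44, adjusted p = 0.0963). KRT6B had 5.87, 6.55 and 5.90 CPM under EZH2i+AKTi, against 5.22, 4.82 and 5.02 CPM under DMSO, and did not pass the threshold (log2 0.25 ± 0.13, adjusted p = 0.152) although its libraries did not overlap. Without EZH2i+AKTi library C its change was 0.32 (adjusted p = 0.0703).

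KRT17 and KRT6A depended on the library that stood apart. KRT17 had 1.44, 1.51 and 0.858 CPM under EZH2i+AKTi, against 1.06, 0.868 and 0.818 CPM under DMSO, with adjusted p = 0.224. Without EZH2i+AKTi library C, it was higher by 0.70 (adjusted p = 0.0321). KRT6A had 10, 4 and 14 counts under EZH2i+AKTi, against 14, 21 and 12 counts under DMSO, with adjusted p = 0.157. Without the same library it was lower by -1.43 (adjusted p = 0.0396), which made 4 lower and 1 higher of the tested members. Whether these few KRT6A counts hold reads of KRT6B was not tested.

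**Figure D4:**
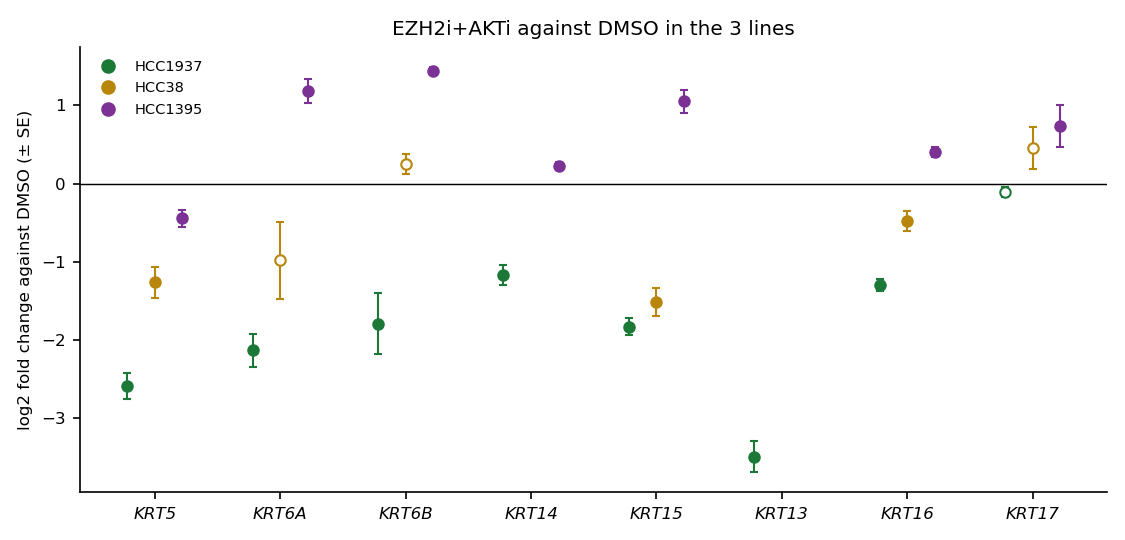
Log2 fold change of each keratin under EZH2i+AKTi against DMSO (points) with its standard error (bars) in HCC1937, HCC38 and HCC1395; filled points passed an adjusted p of 0.05 within the line, and absent points were not tested. KRT15 is at -1.83 in HCC1937, -1.51 in HCC38 and 1.05 in HCC1395, and KRT5 is below zero in all 3 lines.

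The differences between the lines in this response were tested in 1 fit of all libraries. HCC1937 minus HCC1395 was negative and called for 8 of 8 members, with 23.3% of all genes called. KRT13 is among them only through its counts in HCC1937. With 0 to 2 counts in HCC1395 libraries, its call does not describe a response of KRT13 in HCC1395. KRT13 aside, the differences were largest for KRT6A (-3.32 ± 0.31), KRT6B (-3.23 ± 0.25), KRT15 (-2.88 ± 0.22) and KRT5 (-2.15 ± 0.21) on the log2 scale. Whether KRT6A counts in HCC1395 hold reads of KRT6B was not tested. KRT17, which was not called within HCC1937, also differed (-0.86 ± 0.24, adjusted p = 0.00839). KRT5 fell under the combination in each line, and it fell further in HCC1937 than in HCC1395.

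HCC38 minus HCC1395 was negative and called for 6 of 8 members, with 33.0% of all genes called. The 6 include KRT14, which like KRT13 did not pass the low-count filter within HCC38 and entered this fit through other lines. KRT15 differed by -2.53 ± 0.23, KRT5 by -0.80 ± 0.21, KRT6A by -2.14 ± 0.43, KRT6B by -1.16 ± 0.13 and KRT16 by -0.86 ± 0.13. Without EZH2i+AKTi library C of HCC38 these were -2.37, -0.81, -2.63, -1.14 and -0.76, and 6 members were still called lower. KRT14, with 1 to 10 counts in HCC38, differed by -1.62 ± 0.51 (adjusted p = 0.0144) but not past the threshold without DMSO library B or EZH2i+AKTi library A or B of HCC38 (adjusted p of 0.086, 0.0746 and 0.0735). Without EZH2i+AKTi library C of HCC38 the KRT14 difference was -2.78 (adjusted p = 0.000801). KRT17 was not called (-0.26 ± 0.32, adjusted p = 0.574), nor without EZH2i+AKTi library C of HCC38 (-0.07, adjusted p = 0.923). KRT13, with few counts in both lines, was not called either (adjusted p = 0.0952), but passed without DMSO library A or C of HCC1937 (adjusted p = 0.0383 and 0.0337), with no low-count filter (adjusted p = 0.0218) and with DESeq2 (adjusted p = 0.023). Without EZH2i+AKTi library C of HCC38, KRT13 had adjusted p = 0.252.

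HCC38 minus HCC1937 was positive and called for 3 of 8 members, with 32.0% of all genes called: KRT6B (2.07 ± 0.26), KRT5 (1.35 ± 0.23) and KRT16 (0.85 ± 0.13). KRT15 fell in both lines and its difference was not called (0.36 ± 0.18, adjusted p = 0.146). Without EZH2i+AKTi library C of HCC38, KRT15 (0.52, adjusted p = 0.0293) and KRT17 (0.80, adjusted p = 0.00863) were called as well, for 5 of 8. KRT6B, KRT5 and KRT16 were then at 2.09, 1.34 and 0.96. KRT17 was also called without AKTi library B of HCC1395 (0.60, adjusted p = 0.038). KRT13 and KRT6A lay near the threshold in that comparison, with adjusted p of 0.0513 and 0.0591. KRT13 passed it when DMSO library A or C or EZH2i+AKTi library C of HCC1937, or any 1 DMSO or AKTi library of HCC1395, was left out, with adjusted p of 0.0113 to 0.0496. KRT6A passed it without DMSO library B or EZH2i+AKTi library B of HCC38 or DMSO library B of HCC1937, with adjusted p of 0.0308, 0.00873 and 0.0487. Without EZH2i+AKTi library C of HCC38, KRT13 (2.71, adjusted p = 0.117) and KRT6A (0.69, adjusted p = 0.393) did not pass. KRT14 was not called with that library (adjusted p = 0.782) or without it (adjusted p = 0.151).

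The counts of KRT6A kept a narrow ratio to those of KRT6B in HCC1395, and were far below them in HCC38 as well. In HCC1395 the KRT6A count was 2.59% to 3.44% of the KRT6B count under EZH2i+AKTi, 3.09% to 4.25% under EZH2i, 2.41% to 3.41% under AKTi and 3.22% to 3.88% under DMSO. The near-copy KRT6C, which is not a member, was at 0.823% to 1.48% of KRT6B over the same 12 libraries. In HCC38 the KRT6A count was 1.37% to 6.57% of the KRT6B count under EZH2i+AKTi and 6.74% to 13.0% under DMSO. In HCC1937 KRT6A exceeded KRT6B, with 17 to 32 against 3 to 15 counts under EZH2i+AKTi and 104 to 137 against 32 to 44 counts under DMSO. The part of shared reads in KRT6A of HCC1395 and HCC38 was not tested, so its changes in those lines are uncertain as changes of KRT6A itself. The same limit holds for differences in KRT6A between the lines. When KRT6A, KRT6B and KRT6C were summed, the log2 change in HCC1395 was that of KRT6B, which supplies most of the counts.

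**Figure D5:**
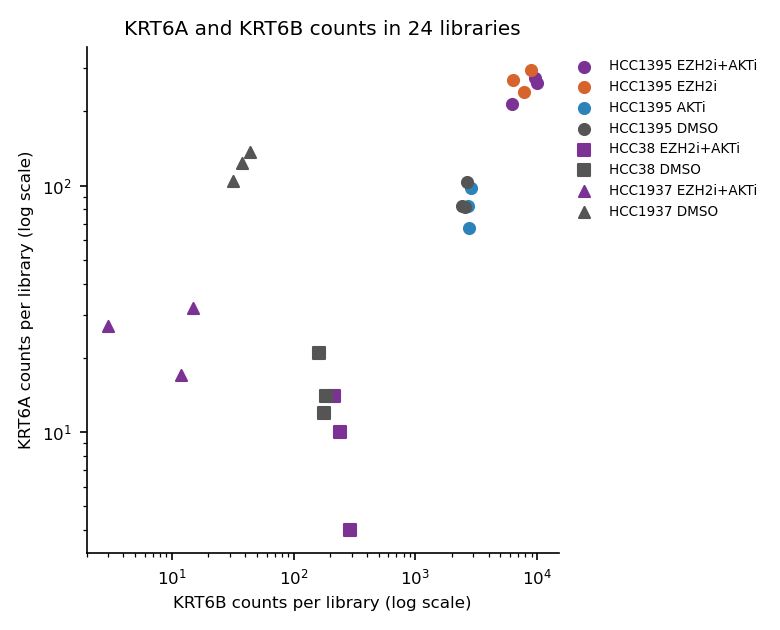
KRT6A counts against KRT6B counts in each of 24 libraries, both on log axes, with 1 symbol shape per line and 1 colour per treatment. HCC1395 libraries lie where KRT6A is 2.41% to 4.25% of KRT6B and HCC38 libraries where it is 1.37% to 13.0%. HCC1937 libraries lie where KRT6A exceeds KRT6B.

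KRT16 likewise kept a narrow ratio to the far more abundant KRT14 in HCC1395, at 12.1% to 12.4% of its count under EZH2i+AKTi, 9.72% to 10.4% under EZH2i, 11.9% to 12.5% under AKTi and 10.7% to 11.0% under DMSO. In HCC38, KRT16 had 1129 to 1785 counts under EZH2i+AKTi and 1711 to 1820 under DMSO while KRT14 had 1 to 7 and 6 to 10 counts, so KRT16 counts there did not come with KRT14 counts. The 6 annotated KRT16 pseudogenes in the files summed to 0 to 2 counts in HCC1395 libraries and 16 to 49 counts in the other lines, and the 8 KRT17 pseudogenes to 0 to 8 counts in any library.

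Type I and type II members were out of balance in every group. Summed per kilobase, the 5 type I members exceeded the 3 type II members by 3.69 to 4.11 times under EZH2i+AKTi in HCC1395 libraries, 4.14 to 4.39 times under EZH2i, 6.19 to 6.66 times under AKTi and 8.28 to 8.45 times under DMSO. In HCC38 the ratio was 6.36 to 8.91 under EZH2i+AKTi and 9.08 to 11.1 under DMSO. In HCC1937 it was 416 to 587 under EZH2i+AKTi and 254 to 320 under DMSO. HCC1395 and HCC38 libraries under EZH2i+AKTi thus lay below their DMSO libraries, and HCC1937 libraries above theirs. Other type II keratins, such as KRT8 at 3013 ± 247 CPM in HCC1937 EZH2i+AKTi and 3471 ± 273 CPM in HCC1937 DMSO, are not in these sums.

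The luminal and simple epithelial keratins changed in each line. In HCC1395, KRT8 had 125 ± 10.5 CPM under EZH2i+AKTi, 44.8 ± 2.45 under EZH2i, 95.9 ± 7.10 under AKTi and 32.5 ± 3.17 under DMSO, so AKTi raised KRT8 (log2 1.56 ± 0.077, adjusted p = 5.14e-12) while it lowered KRT5 and KRT14. In HCC1937, KRT7 rose to 7670 CPM under EZH2i+AKTi, against 3470 CPM under DMSO (log2 1.14 ± 0.059, adjusted p = 4.82e-10), and KRT19, which lies next to KRT15, fell (log2 -1.26 ± 0.088, adjusted p = 1.56e-08). KRT8 and KRT18 also rose in HCC1395 under EZH2i, by 0.47 ± 0.078 and 0.71 ± 0.070 on the log2 scale, as did most members. KRT19 fell in HCC38 as well (log2 -0.54 ± 0.10, adjusted p = 0.0032). Of the simple epithelial keratins tested under EZH2i+AKTi, 3 of 7 rose and 2 fell in HCC1937, 2 of 6 rose and 2 fell in HCC38, and 3 of 5 rose and 1 fell in HCC1395.

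TP63, the transcription factor that drives KRT5 and KRT14 in stratified epithelia, was expressed at low levels. It had 0.831 ± 0.165 CPM in HCC1937 EZH2i+AKTi and 3.99 ± 0.279 CPM in HCC1937 DMSO, 1.59 ± 0.332 CPM in HCC38 EZH2i+AKTi and 2.69 ± 0.201 CPM in HCC38 DMSO. In HCC1395 it had 10.01 ± 0.970 CPM under EZH2i+AKTi, 9.13 ± 1.37 under EZH2i, 18.1 ± 0.868 under AKTi and 14.0 ± 1.06 under DMSO. On the log2 scale TP63 fell by 2.27 ± 0.18 in HCC1937, 0.79 ± 0.19 in HCC38 and 0.49 ± 0.10 in HCC1395 under EZH2i+AKTi. In HCC1395 it fell by 0.61 ± 0.10 under EZH2i, where KRT5 rose, and rose by 0.37 ± 0.098 under AKTi, where KRT5 fell. The largest adjusted p of these 5 tests was 0.0115, in HCC38. Of 40 genes listed as regulators of keratin genes, 15 of 38 tested rose and 15 fell in HCC1937 under EZH2i+AKTi, 9 of 37 rose and 6 fell in HCC38, and 21 of 33 rose and 5 fell in HCC1395. SATB1, a chromatin organiser of epidermal genes, rose in all 3 lines under EZH2i+AKTi, by 1.53 ± 0.070 in HCC1937, 2.62 ± 0.36 in HCC38 and 5.62 ± 0.22 in HCC1395 on the log2 scale.

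The RNA of EZH2, the target of tazemetostat, fell under AKTi in HCC1395 and did not pass the test under EZH2i. EZH2 had 52.2 ± 3.22 CPM in HCC1937 EZH2i+AKTi and 93.9 ± 5.96 CPM in HCC1937 DMSO, and 46.9 ± 5.93 CPM in HCC38 EZH2i+AKTi and 47.4 ± 0.560 CPM in HCC38 DMSO. In HCC1395 it had 74.2 ± 1.52 CPM under EZH2i+AKTi, 127 ± 1.39 under EZH2i, 76.5 ± 2.59 under AKTi and 135 ± 4.94 under DMSO. Against DMSO it fell under AKTi by 0.82 ± 0.047 on the log2 scale (adjusted p = 1.28e-11), while EZH2i gave -0.08 ± 0.047 (adjusted p = 0.202). RNA levels of a drug's target do not measure its inhibition. Of 7 listed genes of the Polycomb complex and the AKT family, 2 rose and 4 fell in HCC1937, 2 rose and 1 fell in HCC38, and 2 rose and 5 fell in HCC1395 under EZH2i+AKTi.

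Of the filament's partners in desmosomes and hemidesmosomes, ITGB4, the hemidesmosomal integrin that anchors KRT5 and KRT14 filaments through plectin, rose under EZH2i+AKTi in HCC1937 (log2 1.58 ± 0.053) and HCC1395 (3.57 ± 0.057), and under AKTi alone in HCC1395 (2.82 ± 0.056). DSP, the desmoplakin that ties keratin to desmosomes, rose under EZH2i in HCC1395 to 32.5 CPM, against 3.80 CPM under DMSO (log2 3.11 ± 0.19, adjusted p = 2.46e-07). Of 18 keratin partners and linkers tested, 4 rose and 9 fell in HCC1937, 3 rose and 5 fell in HCC38, and 6 rose and 6 fell in HCC1395 under EZH2i+AKTi. Their median log2 changes were -0.32 in HCC1937, -0.07 in HCC38 and 0.07 in HCC1395, so the rises of ITGB4 do not stand for the list. Beside the counts of this and the other lists under EZH2i+AKTi stand the shares of all genes called, at 59.3% in HCC1937, 31.4% in HCC38 and 60.0% in HCC1395. Under EZH2i alone in HCC1395, 9 partners rose and none fell, with 33.7% of all genes called.

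Genes of the suprabasal layers and the cornified envelope were unevenly expressed. Of the 42 present in the counts, 15 to 18 averaged at least 1 CPM in HCC1937, 14 in HCC38 and 9 to 13 in HCC1395. Their sums were 1582 to 1911 CPM in HCC1937 libraries, 1093 to 1724 CPM in HCC38 and 223 to 391 CPM in HCC1395. Of 43 listed, 26 were tested in HCC1937 (11 rose and 5 fell under EZH2i+AKTi), 19 in HCC38 (4 rose and 6 fell) and 18 in HCC1395 (8 rose and 5 fell). IVL, the envelope precursor involucrin, rose in HCC1937 to 4.32 CPM under EZH2i+AKTi, against 0.954 CPM under DMSO, and in HCC38 to 3.17 CPM, against 1.11 CPM under DMSO. IVL does not stand for the list in HCC38, where the median log2 change was -0.15, against 0.27 in HCC1937. The list summed to 1093 to 1500 CPM under EZH2i+AKTi in HCC38 and 1581 to 1724 CPM under DMSO. KRT4, the usual type II partner of KRT13 in mucosa, rose in HCC1937 to 18.5 CPM under EZH2i+AKTi, against 5.71 CPM under DMSO (log2 1.69 ± 0.10, adjusted p = 2.24e-09), while KRT13 fell. Of 27 basal and myoepithelial genes other than keratins, 14 of 24 tested rose and 7 fell in HCC1937, 12 of 26 rose and 3 fell in HCC38, and 10 of 25 rose and 5 fell in HCC1395 under EZH2i+AKTi.

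The markers of other cell types show what the lines hold. Fibroblast markers (8 genes) summed to 789 to 953 CPM over all HCC1395 libraries, of which COL1A2 gave 733 CPM under DMSO, and to 14.6 to 37.3 CPM in the other lines. Leukocyte markers (8 genes) summed to at most 10.7 CPM in any library, with 2 to 4 of them at 0 counts throughout a group. Luminal markers (15 genes) summed to 6312 to 7395 CPM in HCC1937, 3125 to 4146 CPM in HCC38 and 377 to 721 CPM in HCC1395. KRT8, KRT18 and KRT19 are luminal markers too. Under DMSO they averaged 3471, 1681 and 52.6 CPM in HCC1937, 987, 550 and 1153 CPM in HCC38, and 32.5, 29.1 and 0.874 CPM in HCC1395.

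Within HCC1395, the genes whose levels followed each member most closely over the 12 libraries were found by Pearson correlation of log2 CPM among 11470 protein-coding genes. They were VCAN for KRT5 (r = 0.990), ID3 for KRT14 (0.992), GLB1L2 for KRT6A (0.983), PTN for KRT6B (0.997), METTL7A for KRT15 (0.983), GRIN1 for KRT16 (0.965) and ADAMTS17 for KRT17 (0.891). These libraries form 4 groups, so the values mainly describe likeness of the group means, and they carry no p-value. Among the members, KRT6A with KRT6B (0.955) and KRT14 with KRT16 (0.927) were most alike, followed by KRT6B with KRT16 (0.919), and KRT15 with KRT17 (0.276) were least alike.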

How the data were processed

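Polyadenylated RNA was sequenced in 24 libraries, 3 for each of 8 groups. The deposited files hold raw counts per gene symbol for each library. Per the submitters' processing notes, fastp, HISAT2 2.0.5, DESeq2 and the build hg38 were used, with no role or order given, and no source used here gives the read counter, annotation release or strand setting. The authors' deposited tables from DESeq2 were not used. Library totals of 33469927 to 51815656 counts limit precision for members of few counts.

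Counts were tested with edgeR 4.0.16 (limma 3.58.1, R 4.3.3) by the two-sided quasi-likelihood test, with TMM scaling, filterByExpr at a minimum count of 10, robust dispersions and Benjamini-Hochberg adjusted p-values called at 0.05 over all genes tested. Each line was fitted with all its libraries (12 for HCC1395, 6 for each of the other lines), leaving 8, 4 and 4 residual degrees of freedom, and differences between lines came from 1 fit of all libraries with 16. SE of a log2 change is its size divided by the square root of F. CPM used TMM over all libraries, and CPM per kilobase the length of the principal GENCODE 29 transcript. The limit for a count of 0 uses 3 counts and covers counting error only. Sequences were read with Biopython 1.88 from GENCODE 29 transcripts and placed by its exons. The workflow was tested on simulated data.

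The members and the 12 gene lists were chosen with earlier results of these data known. All 8 members are named with any p; from each list, counts and up to 4 genes with the smallest p per comparison are drawn on, along with TP63, EZH2, KRT8, KRT18, KRT19 and KRT6C at any p, and the gene most like each member by correlation (mean of at least 2 CPM, prior count 2). Alternatives were RLE scaling, no filter, a stricter filter (1 CPM in 3 libraries), DESeq2 1.42.0, the replicate letter as a block, 1 library left out, the 2 groups alone, the joint fit and summed near-copies. No 2 libraries of a group agreed within sampling noise. The labels do not say that replicate letters pair libraries. For HCC1395 EZH2i with AKTi, all 3 same-letter pairs correlated above 0.1 in their deviations from group means (0.126, 0.112 and 0.223), which was taken as possible pairing. AKTi with EZH2i+AKTi gave 0.0527, 0.219 and 0.436. The main tests did not use the replicate block, which changed no member call of EZH2i against AKTi.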

Additional observations from a re-analysis of the deposited data

Results flagged for a closer look

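The response to EZH2i+AKTi differed between the lines for most of these keratins, by tests of the difference itself (edgeR quasi-likelihood, adjusted p under 0.05 over all genes in the fit of 24 libraries). All values are differences of log2 changes, and no explanation was tested. For KRT6A, the part of reads shared with KRT6B in HCC1395 and HCC38 was not tested either.

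HCC1937 minus HCC1395 was -3.32 for KRT6A, -3.23 for KRT6B, -2.88 for KRT15, -2.15 for KRT5, -1.71 for KRT16, -1.40 for KRT14 and -0.861 for KRT17. In HCC1395 these members other than KRT5 were higher under EZH2i+AKTi than under DMSO, and in HCC1937 they were lower, with KRT17 not called there.

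HCC38 minus HCC1395 was -2.53 for KRT15, -2.14 for KRT6A, -1.62 for KRT14, -1.16 for KRT6B, -0.863 for KRT16 and -0.798 for KRT5. KRT6B was not called within HCC38. KRT14 had 1 to 10 counts a library there, was not tested within that line and entered this fit through other lines. Its call was lost without DMSO library B or EZH2i+AKTi library A or B of HCC38.

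HCC38 minus HCC1937 was 2.07 for KRT6B, 1.35 for KRT5 and 0.846 for KRT16. KRT5 and KRT16 fell in both lines, and their falls were smaller in HCC38.

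Within HCC1395, the change of KRT15 under both inhibitors differed from the sum of its changes under each by -1.02 on the log2 scale, so the effect of AKTi on KRT15 was not the same with and without EZH2i.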

How the results depend on the processing

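Of 717 log2 changes of members recomputed under settings other than leaving out 1 library, 685 kept their direction and their side of the threshold, 10 lost their call, 14 gained one and 8 reversed. Of 1824 with 1 library left out, 1763 kept both, 21 lost their call, 23 gained one and 17 reversed. All reversals outside near-copies were in changes that were not called. Group levels moved by less than 1 SD under RLE scaling in 64 of 64.

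In the fit of all 24 libraries, EZH2i+AKTi against EZH2i in HCC1395 had 1 higher and 1 lower member, the HCC1395 interaction had 0 lower, and HCC38 EZH2i+AKTi against DMSO had 1 higher (KRT6B). With no low-count filter or with DESeq2 the interaction had 1 higher (KRT16), and HCC38 minus HCC1937 had 6 higher. The DMSO difference of KRT5 in HCC1937 against HCC1395 reversed, near zero, to -0.0033 with RLE scaling, -0.017 with the stricter filter and -0.0035 with DESeq2. With KRT6A, KRT6B and KRT6C summed, KRT6A took the value of a sum made mostly of KRT6B: 0.058 for AKTi against DMSO and 0.0067 for EZH2i+AKTi against EZH2i in HCC1395, 0.20 for HCC38 EZH2i+AKTi against DMSO, and under DMSO -4.35 for HCC1937 against HCC1395 and 0.63 for HCC38 against HCC1937. The causes of the other moves were not tested.

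With 1 library left out, members higher ranged from 0 to 2 in the HCC1395 interaction, 0 to 1 in HCC38 and 3 to 5 in HCC38 minus HCC1937. Log2 changes that crossed zero ranged from -0.0083 to 0.10 (KRT6B, AKTi against DMSO in HCC1395), -0.18 to 0.14 (KRT6A) and -0.083 to 0.022 (KRT6B) in the interaction, -1.38 to 0.21 (KRT14, HCC38 minus HCC1937), -0.085 to 0.24 (KRT17, HCC38 against HCC1395 under DMSO) and -0.033 to 0.088 (KRT5, HCC1937 against HCC1395 under DMSO). Over all genes, the interaction called 286 genes, 477 with DESeq2, 78 in the fit of all libraries and 127 to 1022 with 1 library left out. HCC38 called 5362 genes, and 3520 without DMSO library A, 3114 without DMSO library B and 3300 without EZH2i+AKTi library B.

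Where no member was called in a direction, edgeR at an unadjusted p under 0.05 and DESeq2 gave 0 members as well, except 3 and 1 higher in the interaction. Deviations of same-letter libraries from their group means correlated at -0.341 to 0.436 in HCC1395, -0.294 to 0.342 in HCC38 and -0.594 to -0.264 in HCC1937. With 3 libraries a group, such correlations cannot settle whether replicate letters pair libraries. In HCC1395, all same-letter correlations of AKTi with EZH2i and of AKTi with EZH2i+AKTi were positive, so pairing is possible there. The replicate block changed no call of a member, with 6 higher under EZH2i in HCC1395 and 7 lower in HCC1937, and the interaction then called 247 genes. Depth limited KRT13 in HCC1395, KRT13, KRT14 and KRT6A in HCC38 and KRT6B in HCC1937.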
